A study of Mus musculus with 8 samples.

Results

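Fibril-forming collagens were described here in sorted fibroblasts of mouse back skin, across 8 animals. The genes were Col1a1, Col1a2, Col3a1, Col5a1, Col5a2, Col5a3 and Col11a1, and every probe set annotated to exactly 1 of these 7 genes was taken, which gave 13 of the 28898 probe sets with 1 named gene (7 of 17097 genes). The rule names genes and uses no measured value, though the 7 genes were picked with earlier results of these data known. Expression was measured by microarray, with 1 array per mouse. In the GW9662 group (4 mice) the back skin was treated 3 times a week for 6 months with 150 nmol of GW9662 dissolved in 300 µl acetone; GW9662 binds the nuclear receptor PPARG irreversibly and blocks it. The vehicle group (4 mice) received the acetone alone on the same schedule. All 8 mice were 12 months old at the start, and strain, genotype and sex are not given in the sources used here. After removal of the subdermis and collagenase digestion, cells with Pdgfra and CD34 and without CD45, CD117, CD24, CD31 and EpCam were sorted from each skin, and RNA of 5000 cells was amplified over 21 cycles. The cells therefore stand for a gated part of the dermis after digestion, and the drug was on the whole skin and not on fibroblasts alone. The comparison addresses what long-term PPARG inhibition does to gene expression in dermal fibroblasts of ageing mice.

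Fibrillar collagens are made as procollagen chains that wind into a triple helix, lose their propeptides outside the cell and pack side by side into banded fibrils. In skin, the type I chains (Col1a1 and Col1a2) and the type III chain (Col3a1) form the bulk of the fibrils, and chains of types V and XI sit within them, start their assembly and limit their diameter. Dermal fibroblasts are the main source of these chains in skin.

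Values are log2 signals of the authors' RMA output. Levels of different probe sets are not amounts of transcript and are not ranked as such, so a value is read across the 8 samples of 1 probe set. Sample medians lay between 4.63 and 4.69. Of the 8 markers fixed for dermal fibroblasts, 7 had a mean above the median of all genes (5.27), with Dcn at 12.63 and Cd34 at 10.72. Pdgfra, a marker of the gate, was at 4.91 and so below that median. Above that median were also 1 of 7 immune, 2 of 7 keratinocyte, 2 of 5 endothelial, 1 of 4 mural or muscle, 1 of 2 Schwann cell, 0 of 3 adipocyte, 0 of 4 melanocyte and 0 of 4 chondrocyte markers. The brightest of these were Cd68 of the immune list (mean 8.22) and Kdr of the endothelial list (7.84). The mean of the fibroblast list was 10.13 to 10.40 in vehicle, with vehicle 4 lowest, and 10.26 to 10.34 in GW9662 samples. The mean of the endothelial list was 4.98 to 5.57 in vehicle and 5.04 to 5.38 in GW9662 samples, with vehicle 3 and 4 highest. The means of the remaining lists, all of non-fibroblast cells, were 3.57 to 5.36 in vehicle and 3.53 to 5.31 in GW9662 samples. The part of sample composition in the collagen values was not tested. No detection calls were used, so no marker can be called absent. Vehicle 4 stood apart on the first principal component of all genes (score 22.2 against -10.4 to 5.49 in the other 7), and GW9662 4 had the next highest score. Both samples of number 4 were also the lowest of their groups in 8 of the 13 collagen probe sets, which are those of Col1a1, Col3a1, Col5a1 and Col5a2. Results are therefore also given without that pair, and its part in each was not tested beyond this. Samples of 1 number correlated in their deviations from the group means (0.114 to 0.203 across genes), and the design text has a GW9662 and a vehicle mouse collected together each day, so numbers were read as pairs.

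The promoters of 5 of the 7 genes were matched by symbol in the RefSeq table (build GRCm38.p6). The stretches before the start site are shown for Col3a1 and Col5a1, whose levels ran together over the 8 mice, and for Col5a3, whose levels ran with them less closely. Capitals mark the letters of a CCAAT box, a TATA box (TATAAA) or a GC box (GGGCGG), read on either strand. The TATAAA of Col3a1 lies 117 bases before the start site, and whether it acts as a TATA box was not tested. The printed parts of Col5a1 (206 bases) and Col5a3 (200 bases) are shorter than the 250 bases searched before the start site. Of 3 GGGCGG matches in the Col5a3 window, 1 is in the printed part.
Col3a1, chr1:45311288-45311537, plus strand: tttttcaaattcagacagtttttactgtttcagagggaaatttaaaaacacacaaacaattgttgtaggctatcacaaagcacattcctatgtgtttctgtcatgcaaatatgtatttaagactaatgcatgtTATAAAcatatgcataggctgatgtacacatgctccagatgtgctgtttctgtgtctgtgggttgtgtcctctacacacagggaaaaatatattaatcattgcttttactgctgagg
Col5a1, chr2:27886175-27886380, plus strand: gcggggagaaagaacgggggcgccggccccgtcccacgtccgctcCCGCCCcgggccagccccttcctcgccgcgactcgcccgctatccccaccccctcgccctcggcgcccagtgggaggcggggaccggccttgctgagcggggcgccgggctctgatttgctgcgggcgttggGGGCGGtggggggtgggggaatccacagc
Col5a3, chr9:20815118-20815317, minus strand: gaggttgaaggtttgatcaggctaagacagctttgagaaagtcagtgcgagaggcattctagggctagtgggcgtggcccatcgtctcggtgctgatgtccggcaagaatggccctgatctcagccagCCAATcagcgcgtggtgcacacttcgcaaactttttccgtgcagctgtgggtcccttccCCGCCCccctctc
The printed stretches differ in base composition, with 35.2% G and C in Col3a1, 77.7% in Col5a1 and 58.0% in Col5a3. In the 300-base windows of all 32851 promoters in the table, 37.4% hold a CCAAT box, 13.6% TATAAA and 35.7% GGGCGG. The DR1 element, which PPARG binds with its partner RXR, was searched on either strand only in its perfect form, the motif AGGTCA repeated after any 1 base. None of the 5 collagen windows holds that form. Only 0.0396% of all windows do, so its absence from 5 windows was likely beforehand. Elements that depart from this form were not searched. The single motif AGGTCA is in the Col11a1 window alone among the 5, and in 16.3% of all windows. These matches describe letters in a short window and say nothing of binding.

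Of the major chains of the dermal fibril, Col1a1 and 1 of the 2 probe sets of Col3a1 were near the top of the array's signal range, and the probe set of Col1a2 was not. Col1a1 (probe set 1423669_PM_at, the α1 chain of type I collagen) had the 8th highest mean of 45141 probe sets. It measured 12.48, 12.51, 12.43 and 12.25 in vehicle samples 1 to 4 and 12.48, 12.54, 12.59 and 12.32 in GW9662 samples 1 to 4. The groups overlapped almost fully, with number 4 lowest in both. The log2 fold change was 0.06 ± 0.08 (SE), with a 95% interval from -0.12 to 0.25. That interval is for the signal of this 1 probe set. In Col3a1, below, a set of similar brightness spanned 0.36 where a dimmer one spanned 2.23. Whether signals this bright follow the transcript in full was not tested.

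Col1a2, the α2 chain that pairs with α1 in type I collagen, was represented by 1 probe set, 1446326_PM_at, whose mean of 7.85 ranked 4518th. It measured 7.80, 8.06, 7.77 and 7.82 in vehicle and 7.86, 8.17, 7.87 and 7.45 in GW9662 samples. The spread within GW9662 came from GW9662 4 at the low end and GW9662 2 at the high end, and the vehicle values lay between them. The log2 fold change was -0.02 ± 0.13 (SE), and its sign turned without vehicle 4 and GW9662 4 (0.09). Probe sets without a named gene were not used, so Col1a2 rests on this probe set. Whether it reads the spliced Col1a2 transcript could not be told from the annotation, so every Col1a2 value here is that of this probe set and may not be the level of the mRNA.

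Col3a1, the chain of type III collagen, which forms homotrimers and shares fibrils with type I, had 2 probe sets that differed in how far they moved. The brighter, 1427883_PM_a_at (20th of all probe sets), measured 12.17, 12.21, 12.06 and 11.92 in vehicle and 12.19, 12.28, 12.22 and 11.98 in GW9662 samples. The dimmer, 1427884_PM_at (mean 6.84), measured 6.95, 6.98, 6.54 and 5.55 in vehicle and 7.62, 7.42, 7.78 and 5.84 in GW9662 samples. In the dimmer one, GW9662 1, 2 and 3 lay above every vehicle sample, and GW9662 4 lay below 3 of the 4. Its 8 values spanned 2.23 against 0.36 in the brighter set, 6.19 times as wide. The log2 fold changes were 0.66 ± 0.44 and 0.08 ± 0.09 (SE), so the Col3a1 value depended on the probe set taken, and with their mean it was 0.37. The dimmer set's value was 0.34 without vehicle 4 and 1.10 without GW9662 4, and the brighter set's 0.02 and 0.14.

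**Figure D1:**
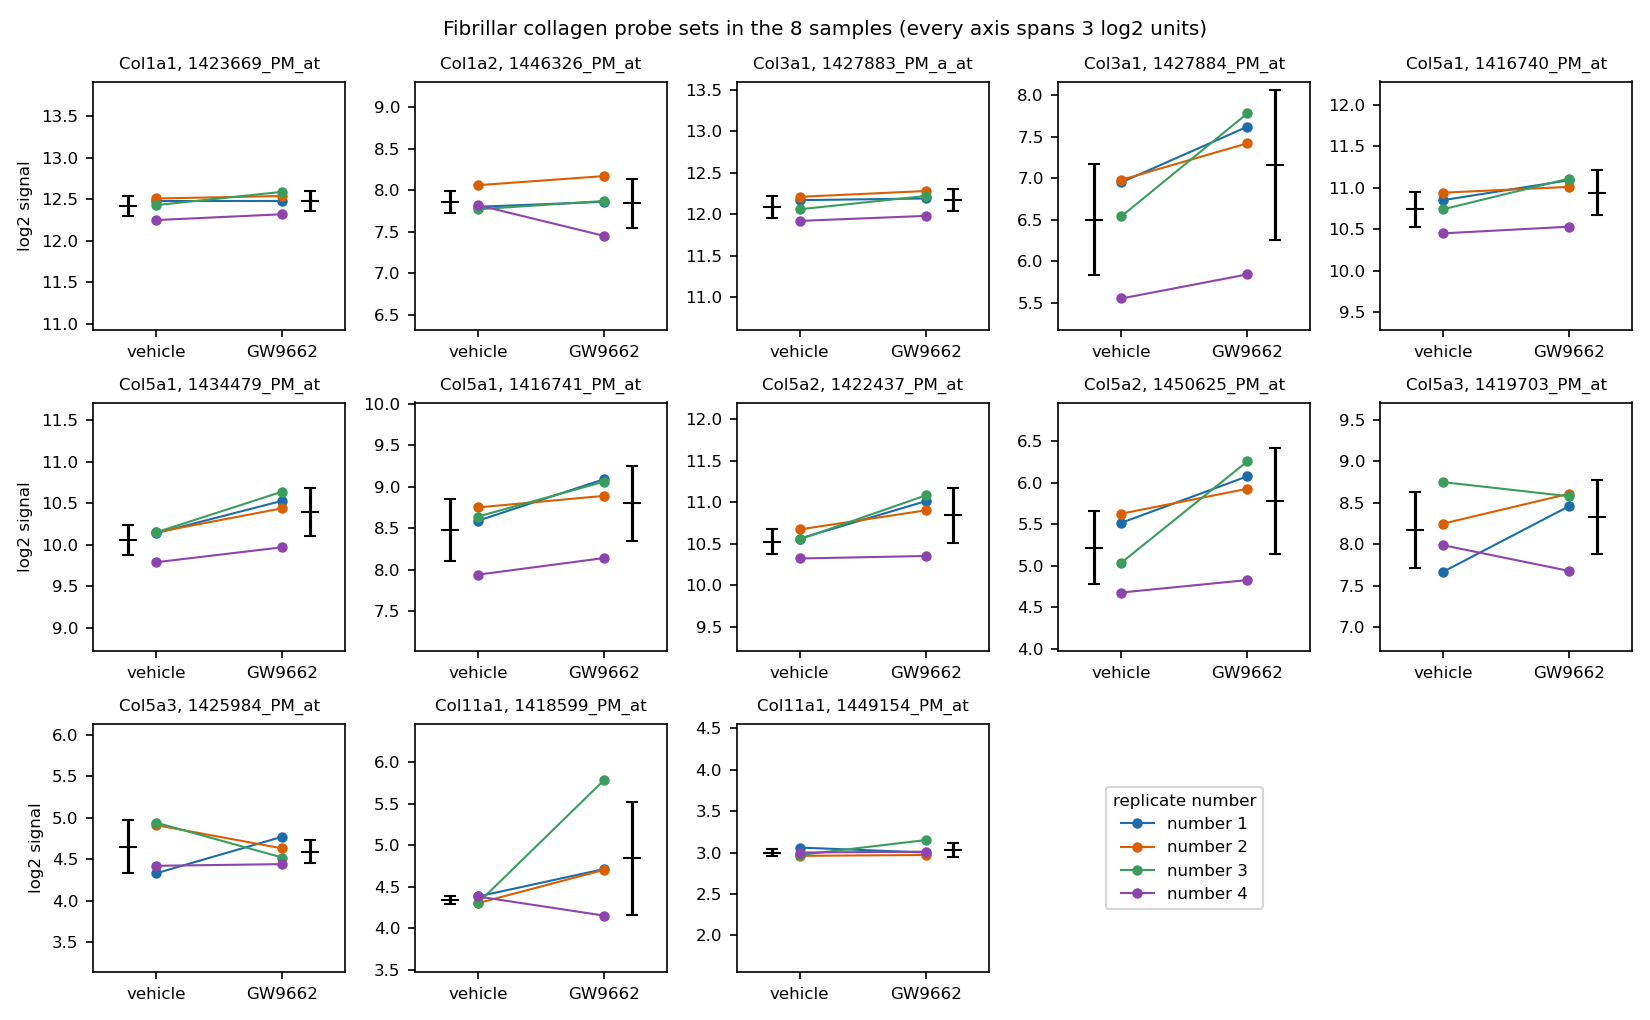
Log2 signal of each of the 13 probe sets in the 8 samples, vehicle at left and GW9662 at right of each panel, with lines joining samples of 1 replicate number and black bars for the group mean ± SD (n = 4 each). Number 4 is lowest in both groups for the probe sets of Col1a1, Col3a1, Col5a1 and Col5a2, and 1427884_PM_at of Col3a1 spans 2.23 where 1427883_PM_a_at spans 0.36.

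The type V chains Col5a1 and Col5a2, which nucleate fibrils of type I collagen, were higher after GW9662 in all 4 pairs in each of their 5 probe sets, as were both sets of Col3a1, though no value passed the test over all genes. Col5a1 had 3 probe sets. The brightest, 1416740_PM_at, measured 10.85, 10.94, 10.74 and 10.45 in vehicle and 11.09, 11.01, 11.11 and 10.53 in GW9662 samples. GW9662 1, 2 and 3 were above all vehicle samples and GW9662 4 was below 3 of them. The next, 1434479_PM_at, measured 10.14, 10.15, 10.15 and 9.79 in vehicle and 10.53, 10.44, 10.64 and 9.97 in GW9662 samples. The third, 1416741_PM_at, measured 8.59, 8.75, 8.64 and 7.94 in vehicle and 9.09, 8.89, 9.06 and 8.14 in GW9662 samples. In both, as in the brightest set, GW9662 1, 2 and 3 lay above all vehicle samples and GW9662 4 above vehicle 4 alone. The log2 fold changes of the 3 sets were 0.19 ± 0.14, 0.34 ± 0.14 and 0.32 ± 0.23 (SE). Without vehicle 4 they were 0.09, 0.25 and 0.14, and without GW9662 4 they were 0.33, 0.48 and 0.53.

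Col5a2 had 2 probe sets. The brighter, 1422437_PM_at, measured 10.56, 10.67, 10.55 and 10.32 in vehicle and 11.01, 10.90, 11.08 and 10.35 in GW9662 samples. The dimmer, 1450625_PM_at, measured 5.52, 5.63, 5.04 and 4.68 in vehicle and 6.08, 5.93, 6.26 and 4.83 in GW9662 samples. In both, 3 GW9662 samples stood above all vehicle samples and GW9662 4 lay above vehicle 4 alone. The log2 fold changes were 0.31 ± 0.15 and 0.56 ± 0.31 (SE), and the brighter set's was 0.40 without the pair of number 4. With 1 sample left out, the brighter set's value was lowest without GW9662 3 (0.23) and highest without GW9662 4 (0.47), and the dimmer set's lowest without vehicle 4 (0.38) and highest without GW9662 4 (0.87).

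Col5a3, the least widespread of the type V chains, did not follow the other chains of its type closely. Its brighter probe set, 1419703_PM_at, measured 7.67, 8.25, 8.75 and 7.99 in vehicle and 8.46, 8.61, 8.58 and 7.68 in GW9662 samples. The dimmer, 1425984_PM_at, measured 4.33, 4.91, 4.94 and 4.42 in vehicle and 4.77, 4.63, 4.52 and 4.44 in GW9662 samples, with a mean near the median of all probe sets (4.62 against 4.65). The 2 sets had log2 fold changes of opposite sign, 0.17 ± 0.25 and -0.06 ± 0.14 (SE). In both, the GW9662 sample was higher in 2 pairs and lower in 2. Without vehicle 1 the brighter set's value was 0.00, and without GW9662 4 it was 0.38.

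Col11a1, a type XI chain best known from cartilage, was dim and its difference came largely from 1 mouse. Probe set 1418599_PM_at measured 4.38, 4.30, 4.30 and 4.38 in vehicle and 4.71, 4.70, 5.78 and 4.15 in GW9662 samples. GW9662 3 was more than a log2 unit above every other sample, and GW9662 4 was the lowest of all 8. The log2 fold change was 0.49 ± 0.27 (SE), 0.18 without GW9662 3 and 0.74 without the pair of number 4. The other set, 1449154_PM_at, lay between 2.96 and 3.15 in all 8 samples, near the bottom of the array (43352nd), and GW9662 3 was again its highest. The mean of the 4 chondrocyte markers in GW9662 3 was 4.16, the highest of the 8 samples (3.98 to 4.12 in the others). Its part in the Col11a1 value was not tested.

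No member passed the comparison of GW9662 with vehicle over the whole array. In limma, 0 of the 7 genes and 0 of the 13 probe sets had an adjusted p under 0.05 (adjusted p = 0.997 for each), as did 0.0% of all genes and 0.0% of all probe sets with 1 gene. Before adjustment, limma's p was under 0.05 for 0 of the 7 genes, against 3.38% of all genes, and for 1 of the 13 probe sets, 1434479_PM_at of Col5a1 (unadjusted p = 0.0396, adjusted p = 0.997), against 3.54% of all probe sets. In direction, 6 of 7 genes and 11 of 13 probe sets were higher after GW9662 by any amount, where 47.0% of all genes and 48.3% of all probe sets were. The median log2 fold change was 0.17 over the 7 genes and 0.19 over the 13 probe sets, and 0.00 over all of either. The groups did not overlap in 0 of the 13 probe sets, against 1.92% of all.

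Within pairs the differences were more even. The GW9662 sample was the higher one in all 4 pairs in 7 of the 13 probe sets, which are the sets of Col3a1, Col5a1 and Col5a2, where 5.71% of all probe sets were. These 7 come from 3 genes and are not independent. For 1434479_PM_at the pair differences were 0.39, 0.29, 0.49 and 0.18 for numbers 1 to 4, and for 1427884_PM_at they were 0.67, 0.44, 1.24 and 0.29. In both, and in both sets of Col5a2, pair 3 had the widest difference and pair 4 the narrowest. With the replicate number as a block, limma gave an unadjusted p under 0.05 in 6 of 13 probe sets, all higher after GW9662, against 5.05% of all probe sets in either direction and 2.77% higher. They were all 3 sets of Col5a1 (0.0349, 0.00184 and 0.0048 in the order above), both of Col5a2 (0.0107 and 0.00899) and 1427884_PM_at of Col3a1 (0.00204). None passed adjustment in that limma fit, nor did any other probe set (0.0% of all; adjusted p = 0.946 for each of the 6), and 2 of 7 genes, Col5a1 and Col5a2, had an unadjusted p under 0.05, against 4.83% of all genes. Without the pair of number 4, 7 of 13 probe sets had an unadjusted p under 0.05 in limma with the block, against 5.97% of all, and again 0 of 13 passed adjustment (0.0% of all; smallest adjusted p among the 13 = 0.822).

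**Figure D2:**
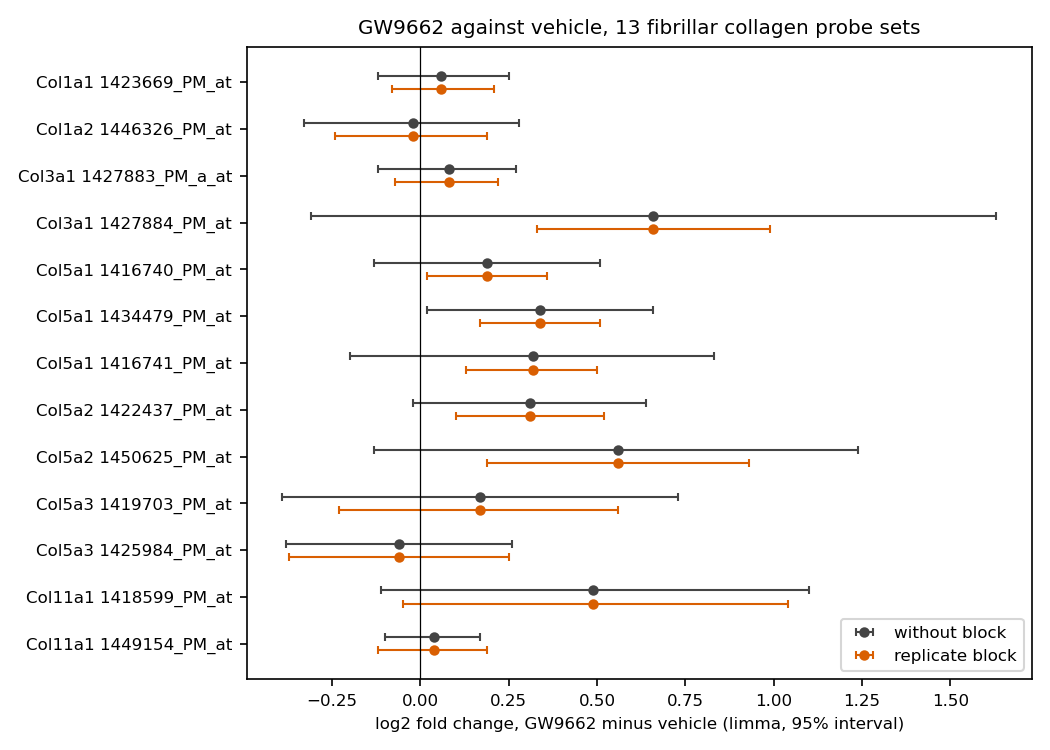
Log2 fold change (GW9662 minus vehicle) of the 13 probe sets from limma, with 95% intervals, without the block (grey) and with the replicate number as a block (orange). The points are the same in both fits, and with the block the intervals of all 3 Col5a1 sets, both Col5a2 sets and 1427884_PM_at of Col3a1 lie above 0.

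In the major and type V chains the replicate number, with more degrees of freedom, held a larger share of the spread than the treatment group. The replicate number held 82.6% of the sum of squares of Col1a1 over the 8 samples, 84.8% of Col3a1 (1427883_PM_a_at) and 76.2% of Col5a1 (1416740_PM_at), and the treatment group held 9.35%, 10.6% and 16.7%. In Col5a2 (1422437_PM_at) the shares were 54.3% for number and 32.7% for group. In Col11a1 (1418599_PM_at) the number held 33.6%, the group 25.9%, and 40.5% was left to neither. The median over all genes was 47.3% for the number and 7.47% for the group, and over the 404 genes with a mean above 10 it was 60.1% and 9.78%. These shares are a description of 4 pairs, and the number has 3 degrees of freedom where the group has 1. A larger share for the number is therefore likely in any gene, and the shares do not rank the number above the treatment. If a number stands for a day, that day and the 2 mice of the pair cannot be told apart.

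**Figure D3:**
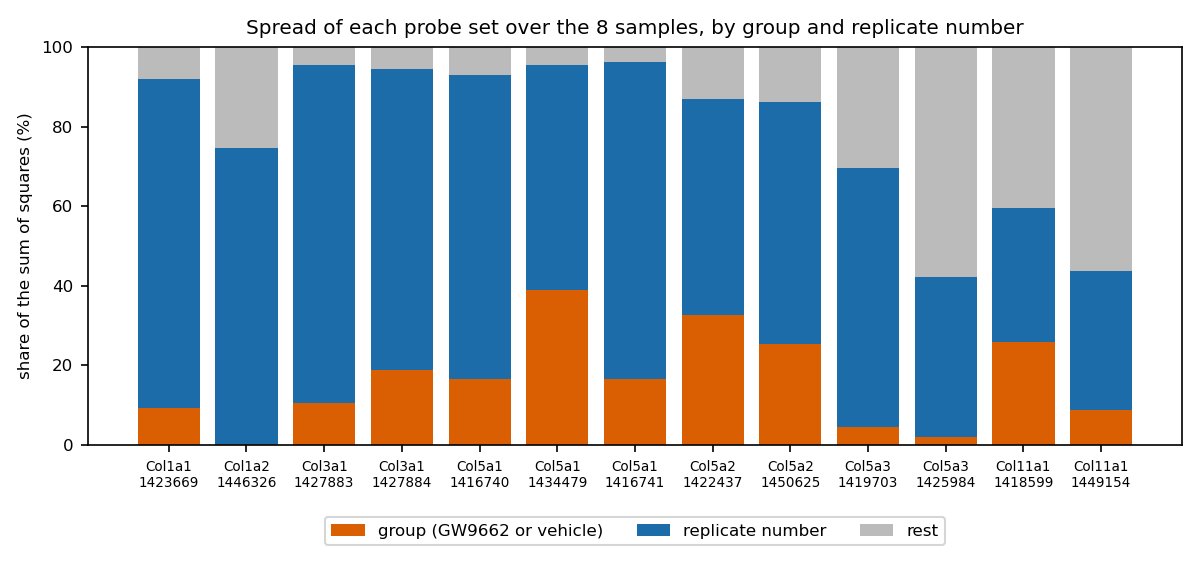
Share (%) of each probe set's sum of squares over the 8 samples that lies between the 2 treatment groups (orange), between the 4 replicate numbers (blue) and in neither (grey). The number takes 54.3% to 84.8% in the probe sets of Col1a1, Col3a1, Col5a1 and Col5a2, and the group takes at most 39.0%.

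Over the 8 mice, Col1a1, Col3a1, Col5a1 and Col5a2 went up and down together. The same 4 genes also followed the first principal component of all genes, on which vehicle 4 stands apart: as a description over the 8 samples, r with its score was -0.85, -0.89, -0.88 and -0.74, against -0.28 to -0.43 for the other 3 genes. The part of that component in the relations below was not tested. With all 8 samples Pearson's r was above 0 for all 21 pairs of the 7 genes, although without the pair of number 4 it was -0.07 for Col3a1 and Col5a3 and -0.03 for Col1a2 and Col11a1. It passed an exact permutation test, adjusted over the 21 pairs, in 7 of them. No share of other gene pairs stands beside these counts, so neither is shown to be particular to these genes. Col5a1 and Col5a2 had the closest relation (r = 0.96, exact permutation p = 3.22e-04, adjusted p = 0.00486; rho = 1, exact permutation p = 4.96e-05, adjusted p = 0.00104, n = 8). Col1a1 and Col3a1 had r = 0.95 (exact permutation p = 5.95e-04, adjusted p = 0.00486) and rho = 0.97 (exact permutation p = 4.96e-04, adjusted p = 0.00521). Col1a1 with Col5a1 had r = 0.95 and Col3a1 with Col5a1 r = 0.94, and Col1a1 and Col3a1 with Col5a2 had r = 0.86 and 0.84 (exact permutation adjusted p between 0.00486 and 0.036 for these 4). Their rho lay between 0.88 and 0.90, with an exact permutation adjusted p of 0.0253 for each. Col5a2 and Col11a1 had r = 0.78 (exact permutation p = 0.00208, adjusted p = 0.00875) but rho = 0.76 with an exact permutation adjusted p of 0.0729. Col3a1 and Col5a2 are neighbours on chromosome 1 with 0 annotated genes between them.

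Of the relations that passed, those of Col1a1 and of Col3a1 rest in large part on number 4. Without the 2 samples farthest from the median of the first gene, which for Col1a1, Col3a1 and Col5a1 are vehicle 4 and GW9662 4, r was 0.79 for Col1a1 and Col3a1, 0.77 for Col1a1 and Col5a1, 0.75 for Col3a1 and Col5a1 and 0.61 for Col3a1 and Col5a2 (n = 6, exact permutation p = 0.0778, 0.0778, 0.0764 and 0.194). None of the 21 pairs passed adjustment then. With 6 samples the smallest possible exact permutation p was 0.00139, which leaves little room to pass over 21 pairs, so nothing is concluded from that count. Col5a1 and Col5a2 kept r = 0.95 (n = 6, exact permutation p = 0.00417, adjusted p = 0.0875). Col5a2 and Col11a1 had r = 0.82 without vehicle 4 and GW9662 4. As deviations from the group means, r for Col5a2 and Col11a1 was 0.70 and did not pass (exact permutation adjusted p = 0.159). Samples of 1 number may also share a day, so the 8 samples may not be fully independent. As deviations from the group means, r for the 6 pairs among Col1a1, Col3a1, Col5a1 and Col5a2 was 0.85 to 0.96. As deviations from the mean of the 2 samples of a number, which leaves the treatment and the single mouse, it was 0.72 to 0.97. The 2 deviations of a number mirror each other, so that r rests on 4 differences, 1 per pair. Genes higher after GW9662 in every pair, as Col3a1, Col5a1 and Col5a2 were, then have r above 0 by construction. Nothing is concluded from that range.

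Col1a2 and Col5a3 stood closer to the edge of this pattern. Col1a2 had r = 0.61 with Col1a1, its partner in type I collagen (exact permutation p = 0.114, adjusted p = 0.184; rho = 0.77, exact permutation adjusted p = 0.0729), and a rho of 0.83 with Col3a1 (exact permutation adjusted p = 0.0461; r = 0.72, adjusted p = 0.0952). Col5a3 had r = 0.58 with Col5a1 and 0.66 with Col5a2 (exact permutation adjusted p = 0.205 and 0.175), and 0.18 and 0.42 without the pair of number 4. Within replicate numbers, r was -0.09 for Col1a1 and Col1a2, 0.04 for Col1a2 and Col3a1, -0.23 for Col1a1 and Col5a3, -0.03 for Col3a1 and Col5a3, 0.30 for Col5a1 and Col5a3 and 0.49 for Col5a2 and Col5a3. The values within replicate numbers rest on 4 differences each, so nothing is concluded from them. With 8 samples a moderate relation may miss the threshold.

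The probe sets of 1 gene gave much the same order of samples in the chains that ran together, but not the same amplitude. As a description over 8 samples that share RNA and array, r between sets was 0.93 in Col3a1, 0.94 to 0.98 in Col5a1 and 0.97 in Col5a2 (rho = 0.88, 0.95 to 0.97 and 1). The dimmer set of Col5a2 spanned 2.08 times the range of the brighter one, and the dimmest of Col5a1 spanned 1.74 times that of the brightest. Among the 246 genes with 2 or more probe sets and a brightest mean above 10, the median r between the brightest 2 sets was 0.76 and the dimmer one had the larger SD in 65.9%. Over all 7180 genes with 2 or more sets these were 0.31 and 45.6%. In Col5a3 r was 0.70, and 0.43 without the 2 farthest samples. In Col11a1 r was 0.78 with all 8 samples and -0.20 without the 2 farthest, so there it rests on GW9662 3. Across genes, r between any 2 of the 8 probe sets of Col1a1, Col3a1, Col5a1 and Col5a2 was 0.83 to 0.99 (28 pairs, median 0.95).

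**Figure D4:**
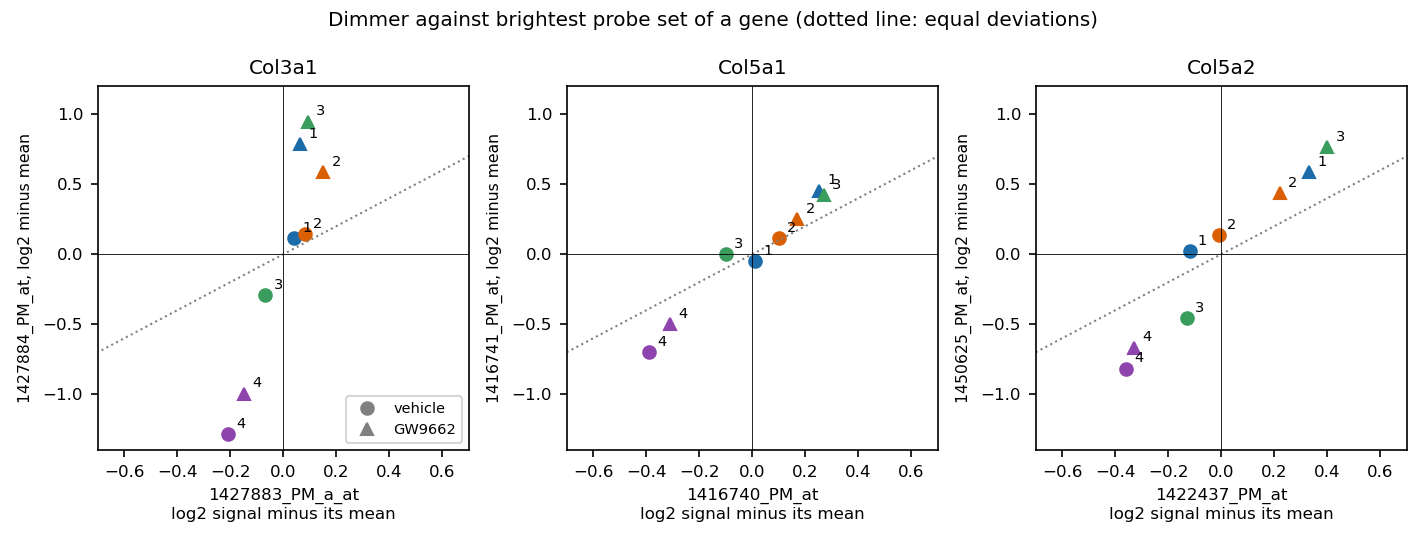
Deviation of the dimmer probe set (vertical) against that of the brightest (horizontal), each in log2 units from its own mean over the 8 samples, for Col3a1, Col5a1 and Col5a2; circles are vehicle, triangles GW9662, numbers the replicate. Points rise more steeply than the dotted line of equal deviation, by 6.19 times in range for Col3a1, 1.74 for Col5a1 and 2.08 for Col5a2.

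**Figure D5:**
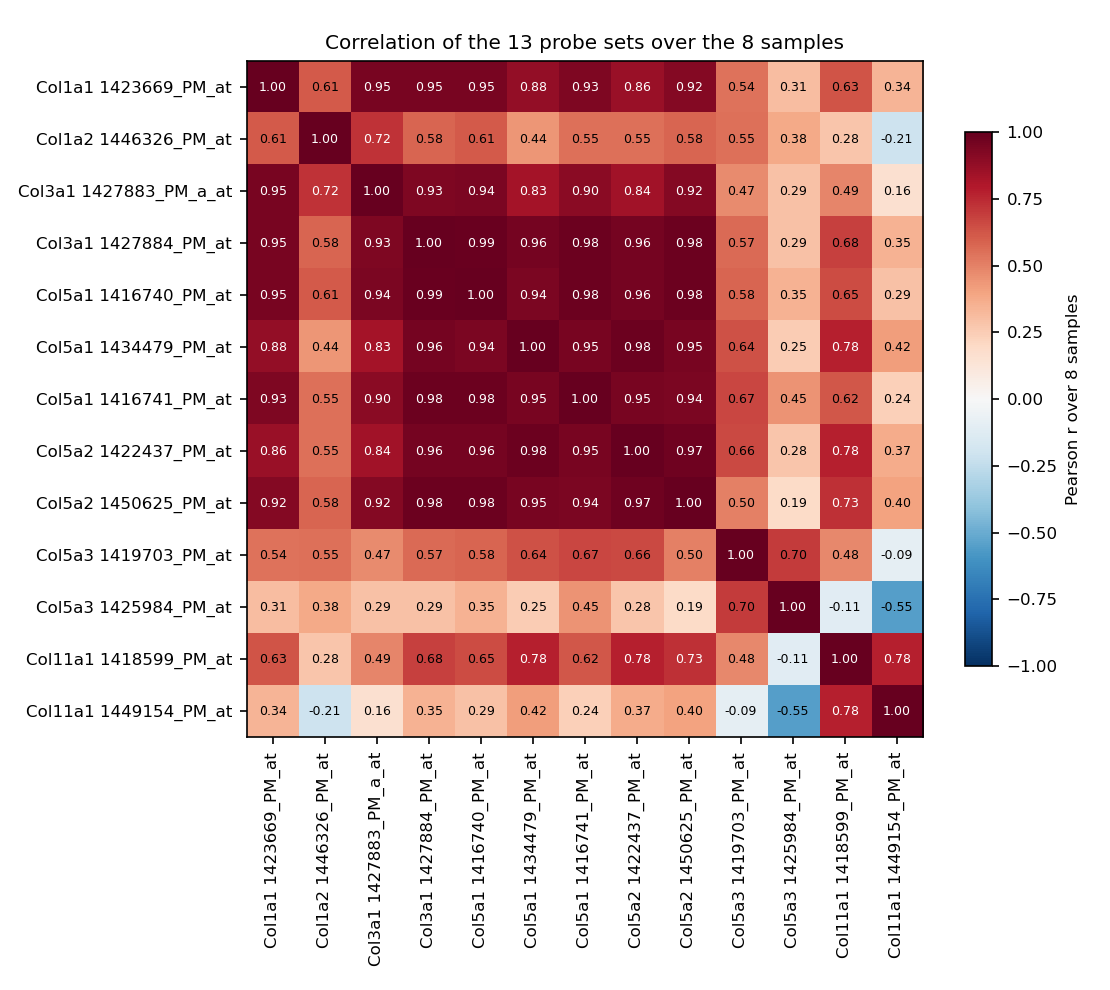
Pearson r over the 8 samples between the 13 probe sets (red positive, blue negative, values printed). The 8 sets of Col1a1, Col3a1, Col5a1 and Col5a2 form a block of 0.83 to 0.99, while 1446326_PM_at of Col1a2 has 0.44 to 0.72 with them and 1418599_PM_at of Col11a1 has 0.49 to 0.78.

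Of 6 differences between chains within a sample, Col3a1 minus Col1a1 and Col5a1 minus Col5a2 varied less over the 8 samples than either of their chains. Col3a1 minus Col1a1 had an SD of 0.04 over the 8 samples, where the 2 chains had SDs of 0.13 and 0.11, and its means were -0.31 ± 0.05 after GW9662 and -0.33 ± 0.03 in vehicle (SD, n = 4 each). It rests on the bright Col3a1 set, and with the mean of both Col3a1 sets GW9662 minus vehicle was 0.30 in place of 0.01. Col5a1 minus Col5a2 had an SD of 0.09 against 0.25 and 0.29, with 0.29, 0.27, 0.19 and 0.13 in vehicle and 0.08, 0.11, 0.03 and 0.18 in GW9662 samples. It was lower after GW9662 in 3 pairs and higher in pair 4. Col5a1 minus Col1a1 was higher after GW9662 in 4 of 4 pairs, at -1.55 ± 0.17 against -1.67 ± 0.10 (SD, n = 4 each), with overlapping groups. It was -1.63, -1.57, -1.69 and -1.80 in vehicle and -1.39, -1.53, -1.48 and -1.79 in GW9662 samples. Pairs 2 and 4 therefore differed little, and no share of other differences stands beside the count. Col1a1 minus Col1a2 (4.64 ± 0.21 against 4.55 ± 0.13), Col5a3 minus Col5a1 (-2.60 ± 0.19 against -2.58 ± 0.49) and Col11a1 minus Col1a1 (-7.65 ± 0.58 against -8.08 ± 0.15, the GW9662 mean raised by GW9662 3) overlapped between groups as well. Their SDs over the 8 samples were 0.17, 0.35 and 0.46, and that of Col5a1 minus Col1a1 was 0.15; each lay between the SDs of its 2 chains. No test was made of these differences. The absolute values compare probes and not amounts.

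The genes that process, assemble, bind and degrade collagen fibrils showed no call either. Of 64 listed genes 58 were measured, with 40 higher and 18 lower after GW9662 by any amount and a median log2 fold change of 0.05 (0.00 over all genes, 47.0% of them higher). In limma 0 passed adjustment, with or without the block. Before adjustment, p was under 0.05 for 1 of the 58, Ctsk, against 3.38% of all genes, and with the replicate block for 9, against 4.83%. Among genes of procollagen hydroxylation, folding and export, 15 of 19 were higher (median 0.09), and the 2 of smallest p were Plod1, a lysyl hydroxylase, at 0.26 ± 0.13 (SE; 0.14 as the mean over its probe sets), and Crtap, a part of the prolyl 3-hydroxylation complex, at 0.19 ± 0.10. In propeptide removal, 5 of 6 were higher (median 0.03), with Tll1 at 0.19 ± 0.10 and Bmp1, the procollagen C-proteinase, at 0.11 ± 0.09 (0.04 as the mean over its probe sets). Tll1 (4.21 in vehicle, 4.40 after GW9662), Adamts3 (3.46 and 3.50) and Tll2 (3.78 and 3.81) lay below the median of all genes. In crosslinking, 3 of 5 were higher (median 0.15), and the lysyl oxidase relatives Loxl1 and Loxl4 differed in sign, at -0.14 ± 0.07 and 0.22 ± 0.11. Outside the naming rule, and chosen after its values were seen, Lox itself was at 0.38 ± 0.20 (SE; 0.24 as the mean over its probe sets) and higher in 4 of 4 pairs, with the smallest p of the list in limma with the block (unadjusted p = 0.00397, adjusted p = 0.966). P4ha2, a prolyl 4-hydroxylase subunit named on the same footing, had the largest difference among the hydroxylation, folding and export genes at 0.31 ± 0.25 (limma adjusted p = 0.997).

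In fibril assembly and diameter control, 6 of 13 were higher and 7 lower (median 0.00). Postn, periostin, was at 0.60 ± 0.29 and Col14a1, a fibril-associated collagen, at 0.69 ± 0.36 (SE), and without the pair of number 4 they were at 0.95 and 1.08. With the block on those 3 pairs Col14a1 was the 1 gene of the list that passed limma over all genes (adjusted p = 0.0394), against 0.00585% of all genes. That fit was added after the values had been seen. With all 4 pairs Col14a1 was higher in 3 of them, and its limma adjusted p was 0.997 without the block and 0.966 with it. The pass therefore depends on a choice of samples made with the values known. Among receptors and uptake, 4 of 6 were higher (median 0.05), with Itgb1, the β1 chain of collagen-binding integrins, at 0.21 ± 0.10 (0.12 as the mean over its probe sets) and Mrc2, which takes up collagen, at 0.07 ± 0.07. All 5 genes of collagen breakdown were higher by any amount (median 0.10), with Ctsk, cathepsin K, at 0.27 ± 0.11 (limma unadjusted p = 0.0294, adjusted p = 0.997) and Mmp2, a gelatinase, at 0.14 ± 0.08. Mmp8 (3.61 in vehicle, 3.64 after GW9662) and Mmp13 (2.77 and 2.80) lay below the median of all genes. Each differed by 0.03 ± 0.06 (SE), so their direction says little. The other fibrillar chains were 2 higher and 2 lower, with Col27a1 at 0.14 ± 0.09 and Col24a1 at 0.04 ± 0.07, which was -0.01 without GW9662 3.

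Among 8228 genes brighter than the median, those whose values ran most like the mean of the 7 collagens over the 8 samples were Extl3 (r = 0.97), Fkbp11 (0.966), Hoxc4 (0.962), Col6a2 (0.947), Slc25a51 (0.946) and Cdk6 (0.945). Col6a2 is a chain of the microfibrillar type VI collagen, and Fkbp11 is a prolyl isomerase of the secretory pathway. The lowest were Nipal2 (r = -0.97), Hsbp1 (-0.963) and Tomm34 (-0.962). They were picked as extremes of many genes read on the same arrays, over 8 samples that may share days, so r is a description. The mean they follow was -0.13, 0.02, -0.03 and -0.24 in vehicle and 0.14, 0.20, 0.35 and -0.33 in GW9662 samples, in log2 units around each gene's own mean. The genes were not scaled, so Col11a1 (SD 0.52) and Col5a3 (0.42) weigh more in it than Col1a1 (0.11) and Col3a1 (0.13). Fkbp11 measured 6.52 ± 0.33 after GW9662 and 6.24 ± 0.13 in vehicle, and Col6a2 10.30 ± 0.35 and 9.98 ± 0.21 (SD, n = 4 each), and all 9 genes had an adjusted p of 0.997 in limma. Hoxc4, Tomm34, Hsbp1, Extl3 and Nipal2 moved little, with SDs over the 8 samples of 0.06 to 0.11. The median SD of all genes was 0.12.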

How the data were processed

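Per the submitters' processing notes, the authors' values come from RMA in the affy package, without versions given. The deposited values are log2 signals for 45141 probe sets in 8 samples. No source used here states the log base, which was taken from the range (2.44 to 12.96). Depth does not apply to arrays, and the number of mice limits the precision.

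Names came from the platform's annotation, updated through a table of mouse genes. A single gene was given for 28898 probe sets; the 551 with several genes and the 15692 unnamed ones (104 of them controls) were not used. For gene values, the probe set of highest mean stood for each of 17097 genes. GW9662 was compared with vehicle in limma 3.58.1 (R 4.3.3), without covariates, two-sided, with Benjamini-Hochberg adjustment over all genes or all probe sets with 1 gene and a threshold of 0.05. Correlations over samples were tested by exact permutation of all 40320 pairings, two-sided. The procedure was tested on simulated data.

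Samples of 1 number correlated in their deviations from the group means at 0.203, 0.163, 0.114 and 0.165, so numbers were read as pairs and a fit with the number as a block was run beside the main one. No 2 samples shared more than 3.05% of their values. Alternatives were the block, trend and robust variances, brighter probe sets or genes only, other scalings, array weights, mean of probe sets and each sample left out. Fits without vehicle 4 and GW9662 4 were added after the values had been seen. Members, the list of 64 genes and the markers were chosen with earlier results of these data known. Named beside the members are the 2 listed genes of smallest p in each role, and the 6 and 3 genes of highest and lowest r with the mean of the members among brighter genes with an ordinary symbol.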

Additional observations from a re-analysis of the deposited data

Results flagged for a closer look

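In 2 of 26 groups of 4 values (13 probe sets in 2 groups), 1 sample lay far from the other 3, and about 1 such group in 20 arises by chance. Probe set 1434479_PM_at of Col5a1 measured 9.79 in vehicle 4 against 10.14 to 10.15 in the other vehicle samples. Probe set 1419703_PM_at of Col5a3 measured 7.68 in GW9662 4 against 8.46 to 8.61 in the other GW9662 samples.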

How the results depend on the processing

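No member passed limma's adjusted test under any alternative, and the number of members higher and their median log2 fold change kept their direction: 0.07 to 0.33 over the 7 genes and 0.11 to 0.38 over the 13 probe sets when 1 sample was left out. Counts at an unadjusted p under 0.05 did move. Of the 7 genes there were 2 with the replicate block, 1 with array weights, 3 without vehicle 4 and GW9662 4 (with or without the block), and 0 to 3 with 1 sample left out. The share of all genes was 4.83% with the block, 4.22% with array weights, 5.08% and 5.76% without the pair (without and with the block), 3.83% with renewed quantile normalisation and 2.15% to 5.19% with 1 sample left out. Of the 13 probe sets there were 6 with the block, 2 with trend and robust variances, 2 with array weights, 7 without that pair (with or without the block), and 0 to 7 with 1 sample left out, with 7 without GW9662 4 and 0 without vehicle 1, vehicle 4 or GW9662 1, 2 or 3. Over these settings 2.38% to 5.97% of all probe sets did so. Of the 58 fibril assembly genes there were 9 with the block, 2 with renewed quantile normalisation, 3 with array weights, 6 without the pair, 8 without it and with the block (where 1 passed adjustment), and 0 to 11 with 1 sample left out. Correlated gene pairs past the adjusted exact permutation test numbered 7 of 21, but 0 without the 2 farthest samples, 0 without the pair of number 4, and 4 to 7 with 1 sample left out, with 4 without GW9662 3. Both counts of 0 come from 6 samples, where the smallest possible exact permutation p was 0.00139, so they decide little. Among gene pairs, r turned to -0.07 for Col3a1 and Col5a3 and -0.03 for Col1a2 and Col11a1 without the pair of number 4, and to -0.09, -0.23 and -0.03 within replicate numbers for Col1a1 with Col1a2, Col1a1 with Col5a3 and Col3a1 with Col5a3. Signs also turned for Col1a2 (0.04 without vehicle 2, 0.10 without GW9662 4, 0.09 without the pair, and from -0.14 to 0.10 with 1 sample left out), Col24a1 (-0.01 without GW9662 3), 1425984_PM_at of Col5a3 (0.03 without vehicle 2, 0.04 without vehicle 3, from -0.17 to 0.04), the r between the Col11a1 sets (-0.20 without the 2 farthest), Col5a3 minus Col5a1 (0.17 without vehicle 3, 0.02 without vehicle 4, 0.06 without GW9662 4, from -0.22 to 0.17) and Col3a1 minus Col1a1 (-0.01 without GW9662 2). The cause was not tested.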
